A study of Mus musculus with 6 samples.

Results

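The genes described here encode the adenylyl cyclases (Adcy), which make cyclic AMP, the cyclic nucleotide phosphodiesterases (Pde), which break down cyclic AMP and cyclic GMP, and the regulators of G protein signalling (Rgs). They were chosen by symbol as Adcy, Pde or Rgs followed by a number, with a closing letter a to d for Pde. Pde10a, Rgs5, Rgs9 and Rgs16 were left out by the choosing rule. This gave 49 of the 32531 gene features listed in the count files, namely 10 Adcy, 21 Pde and 18 Rgs genes. The samples came from the hypothalamus of untreated control mice of the line Lhx5-TRAP DT154, named in the titles Lhx5-EGFP-Rpl10a-DT154. In this translating ribosome affinity purification, ribosomal protein L10a carries an EGFP tag in the cells where the Lhx5 transgene is active, and anti-EGFP antibodies pull the tagged polysomes from the dissected tissue. The 3 IP libraries hold the RNA so purified, and the 3 unbound libraries come from the same line and tissue, although their titles name them input and the labels do not resolve which holds. All 6 libraries share the transgene. The labels give neither the age of the animals nor whether samples came from separate animals, so p-values measure only the spread between these samples, which may be technical.

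Many hypothalamic peptides and transmitters act through receptors coupled to G proteins. A stimulatory alpha subunit activates adenylyl cyclase, an inhibitory one restrains it, and the cyclic AMP made acts through protein kinase A and other effectors until phosphodiesterases remove it. RGS proteins speed the hydrolysis of GTP by active alpha subunits and so shorten the signal. Cyclase, phosphodiesterase and RGS isoforms differ in their regulation by calcium, G protein subunits and phosphorylation, and brain regions are known to use different sets of them.

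The comparison asked which of these RNAs were at a higher or lower level on tagged ribosomes than in the unbound fraction. Levels are CPM, the reads of a gene relative to all gene reads of its library, after TMM scaling, which evens out differences in library composition, and are mean ± SD with n = 3 where a mean is given. Fold changes are log2 values, IP minus unbound, with their standard error (SE). Adjusted p-values come from the quasi-likelihood test of edgeR, adjusted by Benjamini-Hochberg over all 16991 tested genes, and a gene passed below 0.05. Gene reads per library ranged from 32471045 to 46293837, and 3 reads, taken as the floor of detection, corresponded to 0.0667 to 0.0964 CPM. Lhx5, the gene the tagged line is named for, lay between 56.7 and 70.5 CPM in IP and between 1.86 and 6.28 CPM in unbound libraries.

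Of the 49 genes, 40 had enough reads to be tested, 11 of these were higher in IP, 10 were lower and 19 did not pass. Over all 16991 genes tested, 21.1% were higher and 23.2% lower, beside 27.5% and 25% of the 40 members, so neither share stands far from the background. The IP and unbound libraries did not overlap in 22 of the 40, or 55%, against 55.9% of all genes tested. The median fold change of the 40 was -0.13, and that of all genes tested -0.01. The genes higher in IP were Adcy2, Adcy7, Pde4a, Pde4d, Pde6d, Rgs2, Rgs7, Rgs8, Rgs10, Rgs17 and Rgs19, of which Pde4d, Rgs8 and Rgs17 turned to slightly negative values when the libraries were scaled on pan-neuronal markers. The genes lower in IP were Adcy1, Adcy10, Pde3a, Pde3b, Pde5a, Pde7a, Pde8a, Rgs11, Rgs12 and Rgs22. In bulk samples such as these, fewer cells of a type and less RNA per cell cannot be told apart.

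**Figure D1:**
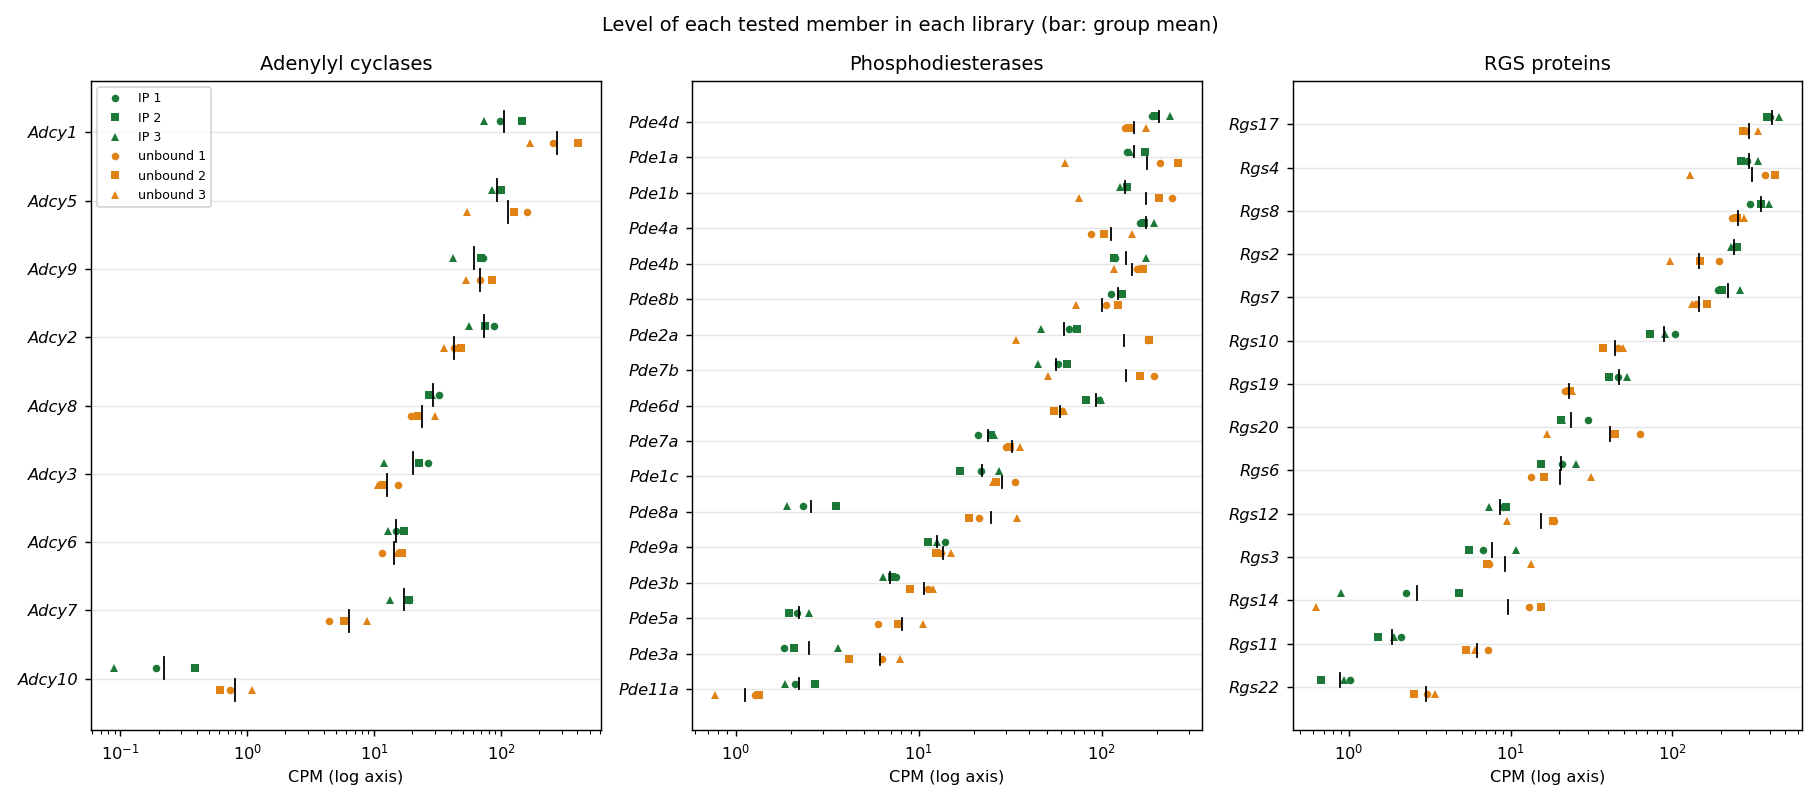
Level of each of the 40 tested members in each library, in CPM on a log axis, with the 3 IP libraries in green, the 3 unbound libraries in orange, a symbol for each replicate and a bar at each group mean. Adcy7, Pde8a, Rgs10 and Rgs19 show groups that do not overlap, and unbound 3 lies far to the left of the other unbound libraries for Rgs14, Pde2a, Pde1a and Rgs4.

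The direction of many small changes depends on the scaling. Pan-neuronal markers were themselves higher in IP, with 9 of 16 higher, 1 lower, a median of 0.53 and summed levels of 19221 to 20548 CPM in IP against 13272 to 14756 CPM in unbound libraries. Snap25 alone held 11385 to 12787 CPM of this sum in IP and 7478 to 8945 CPM in unbound libraries, with a fold change of 0.55. Scaling on the summed markers, and so largely on Snap25, moved the median of all genes by -0.50. Then 2 members, Adcy7 and Rgs19, were higher in IP and 14 were lower. Of the calls, 12.5% were then higher, against 52.4% with TMM scaling. For all genes tested the same share went from 47.6% to 11.0%, with 854 of 16991 higher and 6914 lower under pan-neuronal scaling.

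Per kilobase of exon, 4 RGS genes had the highest mean levels in IP RNA, these means being given without SD. Rgs4 led with 101.8 CPM per kilobase, followed by Rgs7 with 87.5, Rgs10 with 78.0 and Rgs2 with 74.4. Pde6d came next with 63.0 CPM per kilobase, Rgs17 had 50.7 and Rgs8 39.4. The first cyclase in this order was Adcy2 with 17.3 CPM per kilobase, rank 14 of 49, followed by Adcy5 with 13.4 and Adcy9 with 11.8. In unbound RNA Rgs4 again came first with 106.4 CPM per kilobase and Rgs7 second with 57.9, but the first cyclase was Adcy1 with 22.5, at rank 12. The order varied by library. In unbound 3 Rgs4 had 43.9 and Rgs7 53.0 CPM per kilobase, and Rgs10 had 91.4 in IP 1 and 63.7 in IP 2. Lengths are merged exons of GENCODE M21, so a gene whose long isoform is rare is understated on this scale.

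Among the cyclases, Adcy2 and Adcy7, 2 of the 3 isoforms that G protein beta-gamma subunits stimulate, were higher in IP, Adcy7 alone with pan-neuronal scaling, and the calcium-stimulated Adcy1 was lower. Adcy7 (chr8:88272403-88329962, plus strand, mm10) read 18.9, 19.0 and 13.4 CPM in IP 1, 2 and 3 and 4.41, 5.81 and 8.80 CPM in unbound 1, 2 and 3. Each IP library lay above each unbound library, and the fold change was 1.43 (SE 0.28, adjusted p = 0.00363). Adcy2, an isoform of brain, read 87.5, 74.8 and 56.4 CPM in IP and 42.8, 48.6 and 35.3 CPM in unbound libraries. Its groups did not overlap either, at a fold change of 0.79 (SE 0.19, adjusted p = 0.0103), which fell to 0.29 (adjusted p = 0.289) with pan-neuronal scaling. Adcy4, the other isoform of this class, stayed at or below 0.12 CPM in IP and 0.53 CPM in unbound libraries and was not tested.

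Adcy1 (chr11:7063489-7178506, plus strand), a neuronal cyclase stimulated by calcium and calmodulin, read 98.1, 146 and 73.7 CPM in IP and 258, 401 and 169 CPM in unbound libraries. All IP values lay below all unbound values, and the fold change was -1.38 (SE 0.35, adjusted p = 0.0152). It no longer passed without IP 1 (-1.32, adjusted p = 0.0607) and without IP 3 (-1.17, adjusted p = 0.0723). The other calcium-stimulated cyclases did not pass. Adcy3, known for olfactory and ciliary signalling, read 26.5, 22.7 and 12.004 CPM in IP and 15.5, 11.7 and 10.8 CPM in unbound libraries. IP 3 lay within the unbound range, the fold change was 0.69 (adjusted p = 0.0845), and the gene passed without IP 3 (0.98, adjusted p = 0.0109) or when the replicate block was added (0.63, adjusted p = 0.0387). Adcy8 read 32.7, 27.0 and 28.3 CPM in IP and 19.4, 22.3 and 30.1 CPM in unbound libraries. Its fold change of 0.29 (adjusted p = 0.235) became 0.49 (adjusted p = 0.0336) without unbound 3 and was -0.19 with pan-neuronal scaling.

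The cyclases inhibited by calcium and by inhibitory alpha subunits did not pass with all 6 libraries. Adcy5, the main cyclase of the striatum, read 95.9, 99.96 and 84.8 CPM in IP and 162, 126 and 54.1 CPM in unbound libraries. Unbound 3 was the lowest of the 6 and the other unbound libraries the highest. The fold change of -0.28 (adjusted p = 0.534) became -0.62 (adjusted p = 0.00615) without unbound 3 and 0.07 without unbound 1. Adcy6 read 14.8, 17.1 and 12.8 CPM in IP and 11.6, 16.5 and 15.1 CPM in unbound libraries, with overlapping groups and a fold change of 0.05 (adjusted p = 0.851). It was -0.05 without IP 2 or without unbound 1.

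The remaining cyclases are Adcy9, a widely expressed isoform, and Adcy10, the soluble cyclase activated by bicarbonate. Adcy9 read 72.6, 69.3 and 42.0 CPM in IP and 68.2, 84.8 and 52.7 CPM in unbound libraries, with a fold change of -0.16 (adjusted p = 0.612) that became positive without IP 3 (0.07) or unbound 2 (0.03). Adcy10 was near the limit of detection, at 0.19, 0.39 and 0.09 CPM in IP and 0.73, 0.61 and 1.08 CPM in unbound libraries. Its fold change was -1.89 (SE 0.65, adjusted p = 0.0409), and the groups did not overlap. It had 8, 12 and 4 reads in IP and 29, 21 and 45 in unbound libraries, and passed the filter on low counts through the latter. The call and the separation of the groups are therefore no support on their own. The call was lost when any library other than IP 2 was left out (IP 1, IP 3, unbound 1, 2 or 3, adjusted p from 0.0747 to 0.117), and also with the replicate block.

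**Figure D2:**
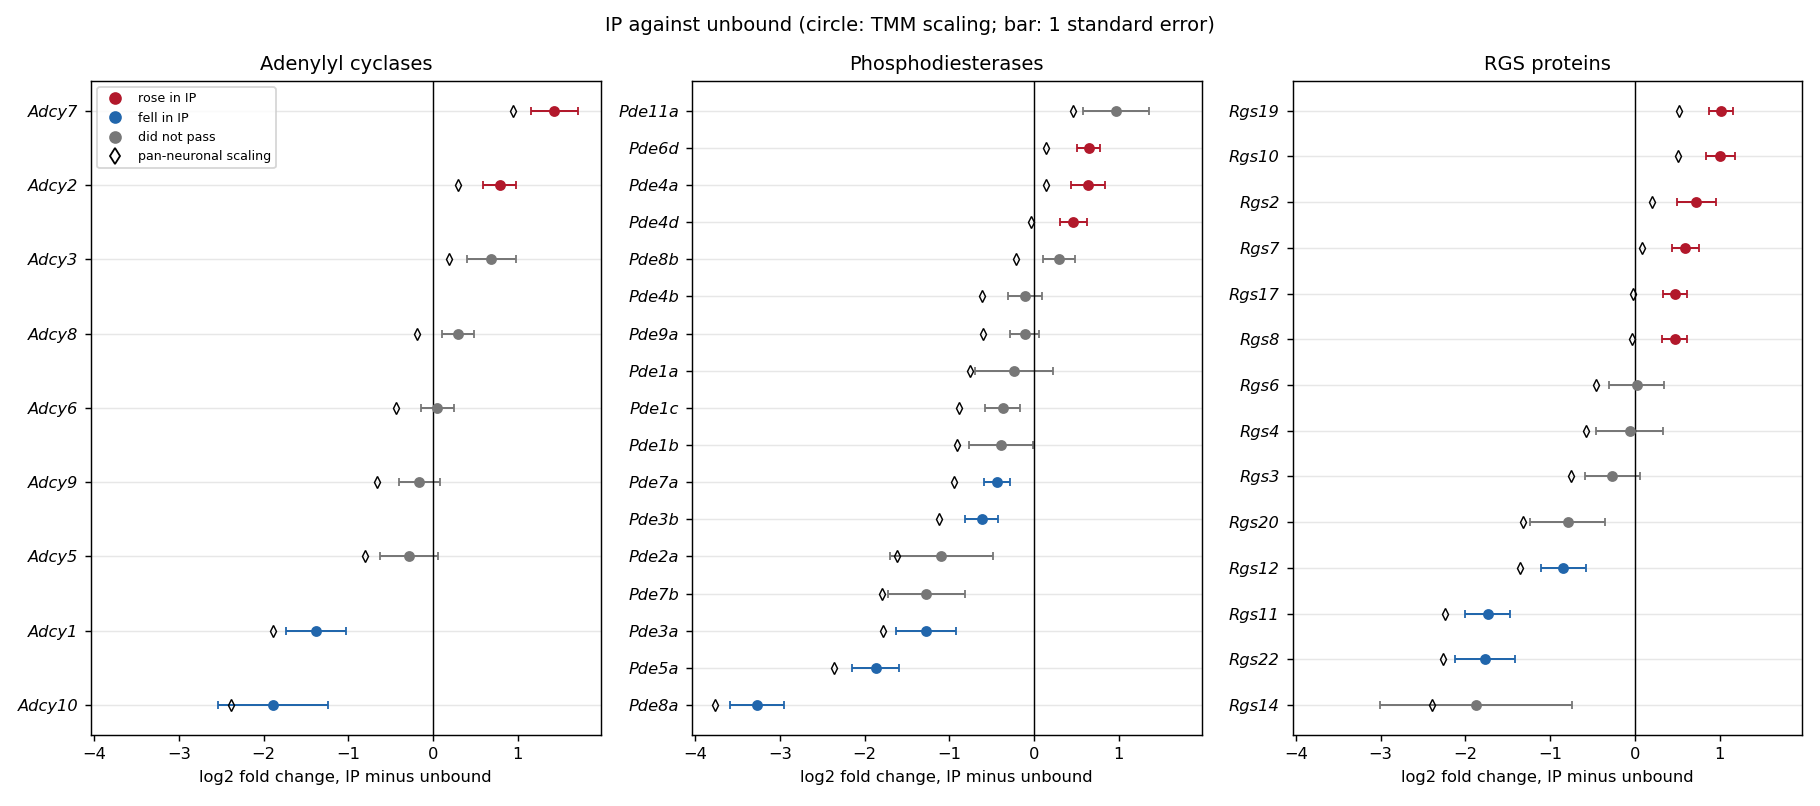
Log2 fold change, IP minus unbound, of the 40 tested members by family. Circles with bars are the TMM-scaled estimate and 1 SE, red for members that rose, blue for members that fell and grey for the rest, and open diamonds are the values with pan-neuronal scaling, which lie to the left of each circle and below 0 for Pde4d, Rgs8 and Rgs17.

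Among the phosphodiesterases, 17 of 21 were tested, 3 (17.65%) were higher and 5 (29.4%) lower in IP, with a median of -0.37. Of all tested genes 21.1% were higher and 23.2% lower, with a median of -0.01. With pan-neuronal scaling the phosphodiesterase counts were 0 and 9, with Pde1c, Pde4b, Pde7b and Pde9a added to those lower. Under that scaling 854 of all 16991 genes were higher and 6914 lower. The largest difference of all 40 tested members was that of Pde8a (chr7:81213596-81334533, plus strand), a high-affinity phosphodiesterase specific for cyclic AMP. It read 2.33, 3.50 and 1.91 CPM in IP and 21.3, 18.8 and 34.2 CPM in unbound libraries. Every IP value was far below every unbound value, a 9.66-fold difference at -3.27 (SE 0.32, adjusted p = 0.00019). Pde8b, its close relative, read 112, 128 and 127 CPM in IP and 105, 123 and 72.0 CPM in unbound libraries. The groups overlapped, and the fold change was 0.30 (adjusted p = 0.243) and -0.21 with pan-neuronal scaling.

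The Pde4 genes, which encode the rolipram-sensitive enzymes specific for cyclic AMP, hold 2 of the 3 phosphodiesterase members that were higher in IP. Pde4d read 188, 195 and 236 CPM in IP and 134, 140 and 175 CPM in unbound libraries, with groups that did not overlap. Its fold change was 0.46 (SE 0.16, adjusted p = 0.0401) and was -0.036 with pan-neuronal scaling. The call was lost when any library other than unbound 3 was left out (IP 1, 2 or 3, unbound 1 or 2, adjusted p from 0.0541 to 0.117). Pde4a read 161, 171 and 193 CPM in IP and 87.7, 102 and 147 CPM in unbound libraries, again without overlap. The fold change was 0.64 (SE 0.20, adjusted p = 0.0274), 0.15 with pan-neuronal scaling, and no longer passed without IP 1, IP 2, unbound 1 or unbound 2 (adjusted p from 0.0515 to 0.0882). Pde4b read 118, 117 and 173 CPM in IP and 156, 168 and 117 CPM in unbound libraries. IP 3 and unbound 3 went against the other replicates of their group, and the fold change was -0.11 (adjusted p = 0.69). It was at most 0.007 above 0 without IP 1, IP 2 or unbound 2.

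Pde7 enzymes also act on cyclic AMP alone. Pde7a read 20.9, 24.9 and 25.7 CPM in IP and 29.8, 31.3 and 35.7 CPM in unbound libraries. The groups did not overlap, and the fold change was -0.44 (SE 0.15, adjusted p = 0.0421). It no longer passed when any library other than IP 3 was left out (IP 1, IP 2, unbound 1, 2 or 3, adjusted p from 0.0753 to 0.144). Pde7b read 57.9, 64.8 and 45.0 CPM in IP and 192, 161 and 51.0 CPM in unbound libraries. Unbound 3 lay inside the IP range, and the fold change of -1.27 (adjusted p = 0.0591) became -1.67 (adjusted p = 6.8e-05) without it and -1.08 (adjusted p = 0.0364) with the replicate block.

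Of the enzymes that split both cyclic nucleotides, the Pde1 genes encode those that calcium and calmodulin activate. Pde1a read 137, 171 and 143 CPM in IP and 207, 262 and 63.2 CPM in unbound libraries. Its fold change was -0.24 (adjusted p = 0.702), -0.65 (adjusted p = 0.00663) without unbound 3 and 0.16 without unbound 2. Pde1b, known for its high level in striatum, read 136, 137 and 126 CPM in IP and 241, 204 and 74.8 CPM in unbound libraries. Its fold change of -0.38 (adjusted p = 0.439) became -0.75 (adjusted p = 0.00133) without unbound 3. For both genes the IP libraries lay between unbound 3 and the other unbound libraries. Pde1c had a fold change of -0.37 (adjusted p = 0.178).

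Pde2a, the phosphodiesterase that cyclic GMP stimulates, read 65.8, 72.9 and 46.4 CPM in IP and 180, 181 and 33.8 CPM in unbound libraries. The fold change of -1.09 (SE 0.60, adjusted p = 0.192) became -1.56 (adjusted p = 0.00014) without unbound 3, where the groups no longer overlapped. Pde3a and Pde3b encode enzymes that cyclic GMP inhibits, known from heart, vessels and fat. Pde3a read 1.83, 2.09 and 3.62 CPM in IP and 6.32, 4.13 and 7.87 CPM in unbound libraries, a fold change of -1.28 (SE 0.36, adjusted p = 0.0183). Its groups did not overlap, and the call was lost without IP 1, IP 2 or unbound 1 (adjusted p from 0.055 to 0.0726). Pde3b read 7.46, 7.14 and 6.36 CPM in IP and 11.3, 8.89 and 11.97 CPM in unbound libraries. The groups were apart here too, at -0.62 (adjusted p = 0.0304), and the call was lost when any library other than unbound 2 was left out (IP 1, 2 or 3, unbound 1 or 3, adjusted p from 0.0541 to 0.105). Pde11a, a scarce enzyme for both nucleotides, had groups apart but did not pass, at 0.97 (adjusted p = 0.0696).

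Pde5a (chr3:122728947-122859374, plus strand), the sildenafil-sensitive phosphodiesterase specific for cyclic GMP, read 2.16, 1.96 and 2.51 CPM in IP and 6.02, 7.70 and 10.6 CPM in unbound libraries. All IP values were below all unbound values, and the fold change was -1.87 (SE 0.28, adjusted p = 0.0011). Pde9a, a high-affinity enzyme for cyclic GMP found in brain, had a fold change of -0.11 (adjusted p = 0.634). Pde6d, which despite its name encodes a chaperone that carries prenylated proteins, read 96.0, 82.1 and 99.4 CPM in IP and 60.7, 54.6 and 62.2 CPM in unbound libraries. The groups did not overlap, at 0.65 (SE 0.13, adjusted p = 0.00497), and this became 0.14 (adjusted p = 0.437) with pan-neuronal scaling. The catalytic photoreceptor genes Pde6a, Pde6b and Pde6c and the scarce Pde4c were not tested.

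Among these untested phosphodiesterases, Pde6a stayed at or below 0.10 CPM and Pde4c at or below 0.11 CPM. Pde6b read 0.048, 0.032 and 0.044 CPM in IP and 0.15, 0.61 and 0.24 CPM in unbound libraries. It was tested and lower in IP without unbound 1 (adjusted p = 0.0325), with no filter on low counts (adjusted p = 0.0476) and by DESeq2 (adjusted p = 0.0369), and did not pass without IP 2 (adjusted p = 0.0730). Pde6c had no read in IP 1 and IP 3, read 0.16 CPM in IP 2 and read 0.25, 0.17 and 0.55 CPM in unbound libraries. It was tested and lower without IP 2 (adjusted p = 0.0206), where the IP libraries left hold no read, and with lane 2 alone (adjusted p = 0.0349). It did not pass with no filter (adjusted p = 0.134), by DESeq2 (adjusted p = 0.137) or without unbound 2 (adjusted p = 0.126). In fits with libraries left out or lane 2 alone, Pde6b and Pde6c passed the filter on low counts only through their unbound reads. Calls from those fits give no support of their own.

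Among the RGS genes, 14 of 18 were tested, 6 (42.9%) were higher and 3 (21.4%) lower in IP, with a median of -0.02. Of all tested genes 21.1% were higher and 23.2% lower, with a median of -0.01. With pan-neuronal scaling 1 RGS gene was higher and 3 were lower, beside 854 higher and 6914 lower of all 16991 genes. Rgs10 and Rgs19 showed the largest rises. Rgs10 (chr7:128373621-128418758, minus strand), a small RGS protein of the R12 family, read 104, 72.6 and 90.0 CPM in IP and 45.9, 37.1 and 49.3 CPM in unbound libraries. The groups did not overlap, at 1.01 (SE 0.18, adjusted p = 0.00218), and with pan-neuronal scaling the value was 0.51 (adjusted p = 0.0565). Rgs19 (chr2:181688419-181693977, minus strand), first known as a partner of inhibitory alpha subunit 3, read 46.2, 40.8 and 52.8 CPM in IP and 21.6, 23.5 and 24.0 CPM in unbound libraries. The unbound libraries were close together and well below the IP libraries, at 1.02 (SE 0.14, adjusted p = 0.00089), and the call held with pan-neuronal scaling (0.52, adjusted p = 0.0175).

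The other members of the RZ family, to which Rgs19 belongs, were Rgs17 and Rgs20. Rgs17 read 400, 388 and 459 CPM in IP and 286, 273 and 339 CPM in unbound libraries. The groups were apart, at 0.47 (SE 0.14, adjusted p = 0.0255), with a value of -0.026 under pan-neuronal scaling. Without IP 1, unbound 1 or unbound 2 it did not pass (adjusted p from 0.051 to 0.091). Rgs20 read 30.1, 20.5 and 20.8 CPM in IP and 62.8, 44.3 and 16.7 CPM in unbound libraries, with unbound 3 below all IP libraries. The fold change of -0.79 (adjusted p = 0.187) became -1.17 (adjusted p = 0.00171) without unbound 3.

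The R4 family holds small RGS proteins that act on inhibitory and Gq-type alpha subunits. Rgs8 read 305, 356 and 398 CPM in IP and 235, 251 and 276 CPM in unbound libraries, apart at 0.47 (SE 0.15, adjusted p = 0.0283) and at -0.031 with pan-neuronal scaling. The call was lost without IP 2, IP 3, unbound 1 or unbound 2 (adjusted p from 0.0503 to 0.0784). Rgs2, which favours Gq-type subunits, read 244, 253 and 230 CPM in IP and 195, 148 and 96.2 CPM in unbound libraries. It was apart at 0.73 (SE 0.23, adjusted p = 0.0307), at 0.21 with pan-neuronal scaling, and the call was lost without IP 1, 2 or 3 or without unbound 2 (adjusted p from 0.0738 to 0.0815). Rgs4, abundant in forebrain neurons, read 290, 268 and 341 CPM in IP and 374, 435 and 129 CPM in unbound libraries. Its fold change of -0.06 (adjusted p = 0.912) became -0.44 (adjusted p = 0.0372) without unbound 3 and 0.25 without unbound 2. Rgs3 read 6.77, 5.53 and 10.8 CPM in IP and 7.34, 7.12 and 13.3 CPM in unbound libraries, IP 3 and unbound 3 being the highest of their group, with a fold change of -0.26 (adjusted p = 0.539) and 0.09 without unbound 3.

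The R7 family works together with the beta subunit Gnb5 and includes Rgs6, Rgs7 and Rgs11. Rgs7, the abundant member, read 193, 204 and 263 CPM in IP and 140, 164 and 133 CPM in unbound libraries. It was apart at 0.60 (SE 0.16, adjusted p = 0.0162), at 0.09 with pan-neuronal scaling, and the call was lost without unbound 1 (0.60, adjusted p = 0.0586). Rgs11 (chr17:26202951-26211324, plus strand), known from retinal bipolar cells, read 2.12, 1.51 and 1.91 CPM in IP and 7.22, 5.29 and 6.02 CPM in unbound libraries. Its groups lay far apart, at -1.74 (SE 0.27, adjusted p = 0.0013). Rgs6 read 20.7, 15.4 and 25.5 CPM in IP and 13.3, 16.1 and 31.3 CPM in unbound libraries, with overlapping groups and a fold change of 0.02 (adjusted p = 0.965). It was negative without IP 3 (-0.12), unbound 1 (-0.15) or unbound 2 (-0.11). Gnb5 itself had a fold change of 0.17 (adjusted p = 0.571), and Rgs7bp, which anchors R7 proteins to membranes, fell by 0.93 (adjusted p = 0.0225), without passing when any library other than unbound 3 was left out (IP 1, 2 or 3, unbound 1 or 2, adjusted p from 0.0676 to 0.0991).

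The large members of the R12 family, Rgs12 and Rgs14, also bind inhibitory alpha subunits through a GoLoco motif. Rgs12 read 9.03, 9.42 and 7.38 CPM in IP and 18.5, 18.3 and 9.55 CPM in unbound libraries, apart at -0.84 (SE 0.27, adjusted p = 0.0309). The call was lost when any library other than unbound 3 was left out (IP 1, 2 or 3, unbound 1 or 2, adjusted p from 0.064 to 0.131). Rgs14 read 2.26, 4.82 and 0.89 CPM in IP and 13.0, 15.3 and 0.62 CPM in unbound libraries. IP 3 and unbound 3 were the lowest of their group, and the fold change of -1.87 (SE 1.14, adjusted p = 0.231) became -2.45 (adjusted p = 0.00296) without unbound 3. Rgs22 (chr15:36009479-36140400, minus strand), known from testis, read 1.02, 0.68 and 0.93 CPM in IP and 3.06, 2.53 and 3.43 CPM in unbound libraries. Its groups did not overlap, at -1.77 (SE 0.35, adjusted p = 0.0040).

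The untested RGS genes are known from blood and immune cells or from taste tissue. Rgs1 read 0.02 and 0.03 CPM in IP 1 and IP 2, had no read in IP 3, and read 0.58, 0.44 and 0.22 CPM in unbound libraries. The groups did not overlap, at a depth of few reads. Fits in which it was tested called it lower in IP with no filter on low counts (adjusted p = 0.0108), by DESeq2 (adjusted p = 0.0050), without IP 1 (adjusted p = 0.0282), IP 2 (adjusted p = 0.0202), IP 3 (adjusted p = 0.0234) or unbound 3 (adjusted p = 0.0049), and with IP 3 and unbound 3 both left out (adjusted p = 0.0066). Rgs1 had 1, 1 and 0 reads in IP and 23, 15 and 9 in unbound libraries. In fits with libraries left out it therefore passed the filter on low counts only through its unbound reads. Those calls give no support of their own. Rgs13 stayed at or below 0.17 CPM. Rgs18 had 1 read in all 6 libraries together and Rgs21 had 0, so neither was detectable at this depth.

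Some members were much lower in unbound 3 than in unbound 1 and 2. In 8 of the 40 tested members, chosen after their values were seen, the level in unbound 3 was under 0.5 of the mean of unbound 1 and 2. These were Rgs14 (0.044), Pde2a (0.19), Pde1a (0.27), Pde7b (0.29), Rgs20 (0.31), Rgs4 (0.32), Pde1b (0.34) and Adcy5 (0.38), and the next members above the line were Adcy1 (0.51) and Rgs12 (0.52). Rgs14 was also low in IP 3, at 0.25 of the mean of IP 1 and 2. The share of all genes under this line was not counted. With all libraries 0 of the 8 passed edgeR's quasi-likelihood test, with 1 lower at an unadjusted p under 0.05, 1 by DESeq2 and 0 by limma-voom. Without unbound 3 all 8 were lower in IP, a direction that choosing members low in unbound 3 favours. At the other end, unbound 3 was 2.13 times the mean of the other unbound libraries for Rgs6, 1.84 times for Rgs3 and 1.72 times for Adcy7. Summed over the 49 members, the level was 3491 and 3667 CPM in unbound 1 and 2, 2443 CPM in unbound 3, and 3245 to 3496 CPM in IP libraries.

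Markers of striatal projection neurons were also lower in unbound 3 than in unbound 1 and 2. The sum of 4 of them (Ppp1r1b, Drd1, Drd2 and Adora2a) was 826 and 683 CPM in unbound 1 and 2 and 36.5 CPM in unbound 3, against 104, 121 and 51.0 CPM in IP 1, 2 and 3. In IP 3, Rgs4 was at 1.22 of the mean of IP 1 and 2, and the rest of the 8 members were below that mean. Their ratios were 0.25 for Rgs14, 0.67 for Pde2a, 0.73 for Pde7b, 0.82 for Rgs20 and 0.87 for Adcy5. Those of Pde1b and Pde1a were 0.92 and 0.93. The ratio of unbound 3 to the other unbound libraries was 0.0080 for Adora2a, 0.029 for Drd1, 0.037 for Ppp1r1b and 0.22 for Drd2. Choroid plexus markers summed to 2053 and 2241 CPM in unbound 1 and 2 and to 40.9 CPM in unbound 3. None of these 4 striatal markers was at 0 in any library, and 0 of 4 passed edgeR's test over all libraries, with 1 lower at an unadjusted p under 0.05, 1 by DESeq2 and 0 by limma-voom. The part of these markers in the members' values was not tested. Without unbound 3, 12 of 41 tested members were higher and 16 lower in IP. With both IP 3 and unbound 3 left out the counts were 13 and 19 of 41. Counts over all genes rose too. They were 3586 higher and 3943 lower of 16991 with all libraries. Without unbound 3 they were 4139 and 4448 of 17256, and with both left out 4429 and 4649 of 17015.

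**Figure D3:**
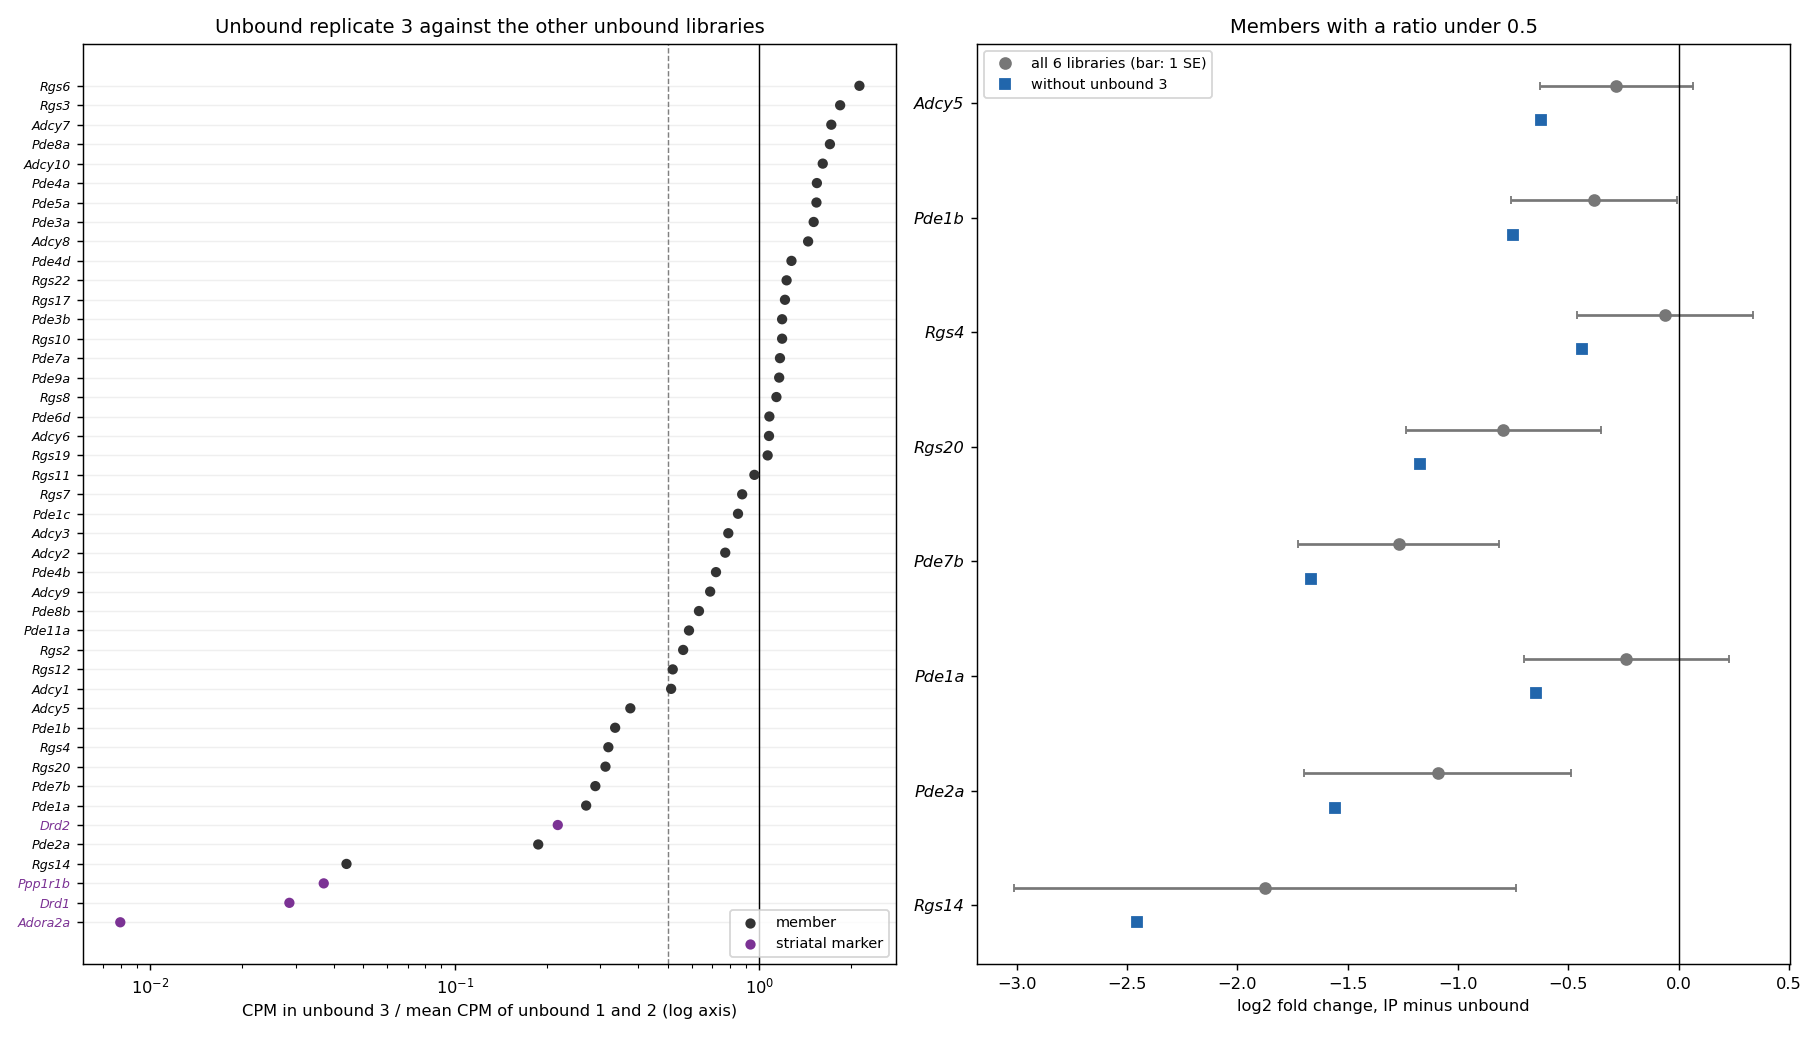
Left, CPM in unbound 3 over the mean CPM of unbound 1 and 2 on a log axis, for the 40 tested members (black) and 4 striatal markers (purple), with a dashed line at 0.5. Right, log2 fold change, IP minus unbound, of the 8 members left of that line, with all 6 libraries (grey circle, bar of 1 SE) and without unbound 3 (blue square), which lies lower for each of the 8.

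Most glial and vascular markers were lower in IP RNA. All 10 oligodendrocyte markers fell, with a median of -3.78 and sums of 341 to 572 CPM in IP and 3831, 3655 and 7018 CPM in unbound 1, 2 and 3. Endothelial and mural markers summed to 3.60 to 7.39 CPM in IP and to 25.0, 19.8 and 52.8 CPM in unbound libraries, with 6 of 9 tested markers lower and Cldn5 at 0 in at least 1 library. All 9 astrocyte markers fell, with a median of -3.17. All 10 microglial markers fell, with a median of -3.39. Their sums were 5.62 to 16.7 CPM in IP and 111, 87.9 and 72.5 CPM in unbound 1, 2 and 3. Rgs10, also known from microglia, was at 1.01, or 0.51 (adjusted p = 0.0565) with pan-neuronal scaling. Some markers had IP values near the floor and passed the filter on low counts through the unbound libraries. Lowest IP levels were 0 CPM for Trem2, 0.13 for Tmem119, 0.14 for C1qa and 0.20 for C1qc. The endothelial or mural markers Tek and Higd1b stayed at or below 0.225 and 0.267 CPM in IP. Calls of such markers give no support of their own. Thalamic neuron markers fell as well, 5 of 5, from 177 to 215 CPM in unbound libraries to 34.6 to 43.9 CPM in IP. The part of these cell types in the members' values was not tested.

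The lists that follow are read against the 21.1% of all tested genes that were higher and the 23.2% that were lower in IP. Counts under pan-neuronal scaling have another background, with 854 of 16991 genes higher and 6914 lower. Upstream of the cyclases, 5 of 13 tested G protein alpha subunits were higher and 3 lower in IP, with a median of 0.29 that became -0.21 with pan-neuronal scaling (2 higher, 6 lower). Gnaz, an inhibitory-class subunit of neurons, rose by 1.25 (adjusted p = 0.00030). Gnas, the stimulatory subunit, rose by 1.20 (adjusted p = 0.00088), from 1849 ± 384 to 4243 ± 165 CPM (n = 3 each), with reads of the overlapping transcripts of this imprinted locus not separable. Gnai2 rose by 0.74 (adjusted p = 0.0025) but only reached 0.24 (adjusted p = 0.194) with pan-neuronal scaling. Gna12 and Gna13, which form a class of their own, fell by 2.47 (adjusted p = 0.00014) and 1.05 (adjusted p = 0.00073). Gnai3 fell by 0.47 (adjusted p = 0.0188) and did not pass without IP 1, IP 2, unbound 1 or unbound 2 (adjusted p from 0.0563 to 0.0882). Gnal, the stimulatory subunit of striatum and olfactory neurons, was at -0.40 (adjusted p = 0.173) and at -0.63 (adjusted p = 0.0038) without unbound 3.

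Of the beta and gamma subunits, 4 of 15 were higher and 5 lower, with a median of 0.11 that became -0.36 with pan-neuronal scaling, -0.08 without IP 1 and -0.06 without unbound 3. The neuronal gamma subunits Gng3, Gng4 and Gng2 rose by 1.39 (adjusted p = 0.00033), 1.27 (adjusted p = 0.00051) and 0.94 (adjusted p = 0.00077). Gng12, Gng11 and Gng5 fell by 2.29 (adjusted p = 0.00011), 4.55 (adjusted p = 0.00013) and 1.77 (adjusted p = 0.00094). Gng11 was at 13.7, 11.8 and 28.6 CPM in unbound libraries, highest in unbound 3, and between 0.64 and 0.84 CPM in IP.

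Downstream, 7 of 14 cyclic AMP effectors, or 50%, were higher and 3, or 21.4%, lower in IP, beside 21.1% and 23.2% of all tested genes, with a median of 0.73, or 0.23 with pan-neuronal scaling (3 higher, 4 lower). The catalytic subunit Prkaca of protein kinase A rose by 1.21 (adjusted p = 0.00076), and its regulatory subunits Prkar2a and Prkar1b rose by 1.05 (adjusted p = 0.0011) and 0.87 (adjusted p = 0.0014). The exchange factor Rapgef4, or Epac2, fell by 1.41 (adjusted p = 0.00065), and Rapgef3, or Epac1, fell by 0.73 (adjusted p = 0.0286). Bves, a cyclic AMP-binding membrane protein, fell by 1.54 (adjusted p = 0.0374). Of the proteins that anchor kinase A, 6 of 10 tested, or 60%, were lower beside 23.2% of all tested genes, with a median of -0.73. The other 4, Akap5, Akap6, Akap10 and Akap12, did not pass, 2 listed genes were not tested, and 0 were higher by edgeR's quasi-likelihood test, by its unadjusted p under 0.05, by DESeq2 or by limma-voom. Akap13 fell by 2.02 (adjusted p = 0.00014), Akap8 by 0.87 (adjusted p = 0.0020) and Akap9 by 0.92 (adjusted p = 0.0036). The anchoring proteins lower in IP were 4 of 11 without IP 1, 5 of 10 without IP 2 and 3 of 10 with lane 2 alone. With pan-neuronal scaling they were 9 of 10, beside 6914 of all 16991 genes. Akap1 did not pass without IP 1, IP 3, unbound 1 or unbound 2. Akap11 did not pass without IP 1, IP 2, unbound 1 or unbound 2. Bves did not pass without IP 1, IP 2 or unbound 1 (adjusted p from 0.11 to 0.178), nor Rapgef3 without IP 1, IP 2, unbound 1, 2 or 3 (adjusted p from 0.056 to 0.0986).

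On the cyclic GMP side, 2 of 13 were higher and 3 lower, with a median of -0.14, or 0.07 without unbound 1, and with pan-neuronal scaling 1 was higher and 6 lower. Nos1, the neuronal nitric oxide synthase, rose by 1.89 (adjusted p = 0.00015), from 12.1 ± 1.68 to 44.9 ± 5.84 CPM (n = 3 each), and by 1.40 (adjusted p = 0.00024) with pan-neuronal scaling. The kinase Prkg2 rose by 0.65 (adjusted p = 0.0074), or by 0.14 (adjusted p = 0.478) with pan-neuronal scaling. The membrane guanylyl cyclases Npr1 and Gucy2e fell by 2.84 (adjusted p = 0.0118) and 1.53 (adjusted p = 0.0068), at levels under 9 CPM, and the soluble cyclase subunit Gucy1a2 fell by 0.55 (adjusted p = 0.0205). Npr1 lay between 0.067 and 0.29 CPM in IP, near the floor, and passed the filter on low counts through the unbound libraries. Npr1 did not pass without IP 1 (adjusted p = 0.0502), nor Gucy1a2 without IP 1, IP 2, unbound 1 or unbound 2 (adjusted p from 0.0756 to 0.0839).

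Of the partners and receptor kinases, 5 of 21 were higher and 4 lower, with a median of 0.00, and with pan-neuronal scaling 1 was higher and 10 were lower. The receptor kinases Grk6 and Adrbk1 rose by 0.78 (adjusted p = 0.0086) and 0.59 (adjusted p = 0.0101), and Grk5 fell by 0.65 (adjusted p = 0.0178), a call lost without IP 1, IP 2 or unbound 1 (adjusted p from 0.0583 to 0.105). With pan-neuronal scaling Grk6 was at 0.28 and Adrbk1 at 0.09. Gpsm2, a binder of inhibitory alpha subunits, fell by 2.72 (adjusted p = 0.00017).

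**Figure D4:**
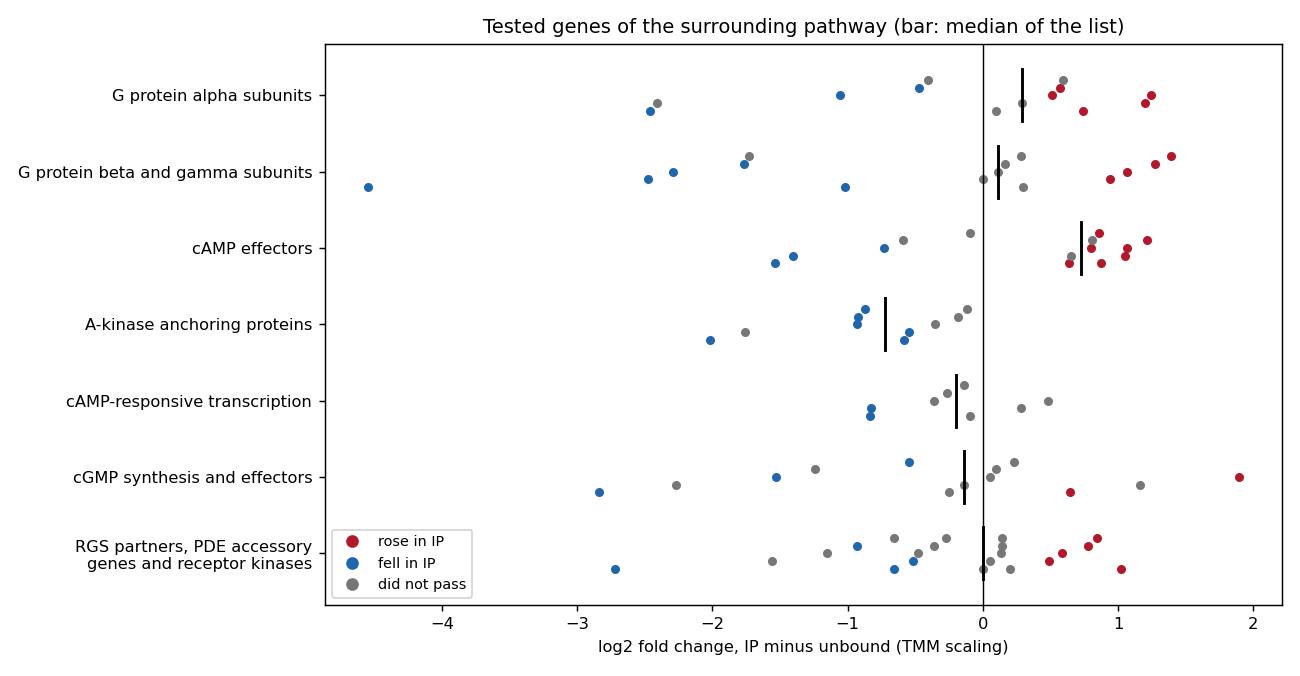
Log2 fold change, IP minus unbound with TMM scaling, of each tested gene in 7 lists of the surrounding pathway, 1 dot per gene, red where it rose, blue where it fell and grey where it did not pass, with a bar at the median of each list. The cAMP effectors centre on 0.73 and the A-kinase anchoring proteins on -0.73.

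Cyclic AMP also reaches genes, through CREB and its relatives, which bind the cyclic AMP response element. Of the 8 tested factors, 2 were lower, the coactivators Crtc2 (-0.83, adjusted p = 0.0034) and Crtc3 (-0.83, adjusted p = 0.0284), with a median of -0.20, and 6 were lower with pan-neuronal scaling. None was higher, with a count of 0 by edgeR's quasi-likelihood test, its unadjusted p under 0.05, DESeq2 and limma-voom. Crtc3 did not pass without IP 1 (-0.58, adjusted p = 0.069) or unbound 2 (-0.86, adjusted p = 0.0594). The short form of this element, TGACGT, was looked for on both strands in the RefSeq promoters (GRCm38.p6), 300 bases around each start site, of 35 members that had an entry. It was in 4 of 64 member promoters, or 6.25%, against 7.51% of all 32851 promoters, and the full element TGACGTCA was in 0 of 64 against 1.79%. The 4 windows shown are all the member promoters that hold it, of which those of Pde4a and Rgs2 belong to genes that were higher in IP and those of Pde4b and Adcy9 to genes that did not pass. Each is written 5′ to 3′ on the gene's strand, with the element in capitals, read as ACGTCA where it lies on the opposite strand.
Adcy9 (chr16:4420487-4420552, minus strand): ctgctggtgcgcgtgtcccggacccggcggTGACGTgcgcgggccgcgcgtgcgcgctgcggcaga
Pde4a (chr9:21184020-21184085, plus strand): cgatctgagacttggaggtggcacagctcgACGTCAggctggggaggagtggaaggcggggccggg
Pde4b (chr4:102421490-102421555, plus strand): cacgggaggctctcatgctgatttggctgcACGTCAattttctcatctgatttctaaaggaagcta
Rgs2 (chr1:144004300-144004365, minus strand): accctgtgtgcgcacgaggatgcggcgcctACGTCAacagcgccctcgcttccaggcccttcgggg
A match is a description of these letters and not of a bound site.

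Reads of overlapping genes limit some of these values. Exons of Adcy3, Pde5a, Rgs11 and Rgs20 overlap a listed gene on the other strand (Cenpo, 4930447N08Rik, Arhgdig and Atp6v1h), and without a stated strand setting those reads cannot be told apart. Reads ambiguous between features made up 1.58% to 1.64% of IP and 7.08% to 9.02% of unbound reads. The part of these reads in the members' values was not tested.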

How the data were processed

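RNA-seq libraries of 3 IP and 3 unbound samples were grouped by the sample type in the labels. The authors deposited raw read counts per gene, 1 table per library, and the submitters' processing notes name STAR 2.0.0e, HTSeq and mm10. Which annotation and strand setting were used is not given in the sources used here. The 6 entries that name no gene, from 52.3% to 55.0% of all reads, stayed out of library sizes and tests. Replicates differed beyond counting noise (chi-square per degree of freedom from 24.4 to 145).

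From these counts, edgeR 4.0.16 (R 4.3.3) fitted a robust quasi-likelihood model with group as its only term, after filterByExpr (minimum count 10, minimum total 15) and TMM scaling. P-values of the 16991 genes that passed the filter were adjusted by Benjamini-Hochberg. SE was taken as the size of the log2 fold change over the root of its F. The script was tested on simulated data. For replicate numbers 1 to 3, the distances of an IP and an unbound library from their group means had correlations over genes of 0.14, 0.16 and 0.21. Each was over 0.1, so the numbers were taken as pairs from this check, not from a label. The main fit did not use these pairs, and the replicate block did. The 2 libraries with replicate number 2 were run on lane 4 and the rest on lane 2. For that number pairing and lane cannot be told apart.

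Alternatives were 3 scalings, 2 filters, DESeq2 1.42.0, limma 3.58.1 (voom), the replicate block, lane, each library left out, IP 3 and unbound 3 left out together, and lane 2 alone, the last chosen after seeing the data. Values per library are given for members with an adjusted p under 0.05 and a change of at least 1 (log2), the 3 most abundant of each family, and those whose call or direction changed without a library. Of each pathway list, the 3 smallest adjusted p-values in each direction are named. Other genes named, such as Gnal and Gnb5, and further members given by library were chosen after their values were seen. A few listed genes are not reported here. The members and lists were chosen with earlier results of these data known. Gene positions and exon lengths are from GENCODE M21 (GRCm38, the same assembly as mm10).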

Additional observations from a re-analysis of the deposited data

How the results depend on the processing

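Of the 21 members called, 5 (Pde5a, Pde8a, Rgs11, Rgs19 and Rgs22) passed in all 17 alternatives. The 11 higher in IP became 7 with library size alone, 2 with pan-neuronal scaling, 3 with lane 2 libraries alone, and 6 to 12 when 1 library was left out. Over all tested genes, the 3586 higher became 2850, 854, 1297 and 2489 to 4139 in the same order of fits. The 10 members lower in IP became 19 with IP 3 and unbound 3 both left out, 6 with lane 2 alone, and 5 to 16 when 1 library was left out. Over all tested genes, the 3943 lower became 4649, 2538 and 3263 to 4448 in these fits. The fit with the replicate block gave 12 higher and 10 lower, losing Adcy10 and gaining Adcy3 and Pde7b, and changed no other call of a member; Gnb4, a listed beta subunit, was lost (adjusted p = 0.0793). Lane as a covariate gave 9 and 8, and DESeq2 11 and 13, the latter with Pde6b, Pde7b and Rgs1 added. Over all genes the block gave 3952 higher and 4017 lower, lane 3329 and 3748, and DESeq2 3625 and 4793. Lane 4 held 1 library a side and gives no value of its own.

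Signs turned as follows. With pan-neuronal scaling Pde4d was -0.036, Rgs17 -0.026, Rgs8 -0.031, Adcy6 -0.44, Adcy8 -0.19, Pde8b -0.21 and Rgs6 -0.46. With library size alone Adcy6 was -0.048 and Rgs6 -0.072, and with a mean of at least 1 CPM Rgs6 was -0.0010. Rgs4 was 0.11 by limma-voom, 0.090 with the replicate block and 0.33 on lane 2, where Pde1a was 0.054 and Pde4b 0.10. When 1 library was left out, values ran from -0.62 to 0.071 for Adcy5, -0.050 to 0.18 for Adcy6, -0.33 to 0.069 for Adcy9, -0.65 to 0.16 for Pde1a, -0.30 to 0.0070 for Pde4b, -0.55 to 0.094 for Rgs3, -0.44 to 0.25 for Rgs4 and -0.15 to 0.48 for Rgs6. Of these, Pde4d, Rgs8 and Rgs17 had passed the test with all libraries. The cause was not tested. Depth limits Adcy10 and the 9 untested members, whose levels lie near or below 1 CPM.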
